A study of Mus musculus with 10 samples.

Results

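The genes described here are the 48 RefSeq protein-coding genes of the mouse whose symbols name a glutamate or GABA receptor subunit, chosen by symbol from 21774 protein-coding genes with a start site. The symbols were those of AMPA (Gria), NMDA (Grin), kainate (Grik), delta (Grid) and metabotropic (Grm) glutamate receptors and of GABA-A (Gabr) and GABA-B (Gabbr) receptors. The symbol rule also took in 1 gene for a scaffold protein, which is not itself a receptor. For each of them, binding of estrogen receptor alpha (ERα) was read from ChIP-seq peak lists of the arcuate nucleus and of the AVPV, both in the hypothalamus.

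Glutamate and GABA are the main excitatory and inhibitory transmitters of the hypothalamus. AMPA, NMDA and kainate receptors are glutamate-gated cation channels, GABA-A receptors are chloride channels built from subunits of several classes, and the metabotropic glutamate and GABA-B receptors signal through G proteins. ERα is a nuclear receptor that binds DNA at estrogen response elements, palindromes of a short half-site in opposite orientations around a spacer, and often does so far from the start sites of genes.

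The 8 ChIP libraries came from female C57BL/6 mice that were ovariectomised, implanted with Silastic tubing holding 17β-estradiol at 0.1 mg/mL, and injected with estradiol benzoate in sesame oil at 0.05 mg/kg. Tissue was taken 28 h after the injection, and ERα was precipitated with an antibody from Santa Cruz. There were 4 libraries of the arcuate nucleus and 4 of the AVPV, and all of them carried the same estradiol treatment, so the comparison is between the nuclei and no library without the injection was analysed here. The chromatin was pooled, and the sources used here do not say whether each library came from a separate pool. Values across libraries therefore measure the spread between libraries, which may be technical. The lists held from 3251 to 4079 peaks in the arcuate libraries and from 2367 to 3347 in the AVPV libraries. Greb1, a well known ERα target, had a peak within 20 kb in all 8 libraries. Absence from a list means only that no peak was called, and binding alone does not show how a gene responds.

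A gene was counted as bound in a library when one of its start sites was the nearest protein-coding start site to the centre of at least 1 peak. By this rule 16 of the 48 receptor genes (33.3%) were bound in at least 1 library, beside 25.5% of all protein-coding genes. When the peak also had to lie within 20 kb of the start site, 3 receptor genes (6.25%) remained, Gria1, Grik4 and Grin2b, beside 17.0% of all protein-coding genes. Receptor genes were thus above the background without a distance limit and below it with one. The first of these depended on the rule, since 16.7% of receptor genes and 19.1% of all protein-coding genes were bound when the start sites of non-coding genes also competed for peaks. The peaks of all libraries were merged where they overlapped by at least 1 bp, which gave 8072 regions, of which 32 had a receptor gene as the nearest gene. Of the 32 regions, 10 (31.2%) were called in 4 or more libraries, a share near that of all regions (34.5%).

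The sequences of 6 of those 10 regions follow. Each line but the last gives the best match to the response element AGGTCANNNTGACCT within 100 bp of the strongest summit, in capitals, with 20 bases on each side in lower case, on the plus strand of mm10. The first and second elements differ from the palindrome at 1 of its 12 fixed bases, and the next 3 at 2 of them. The last line is the 101 bases around the summit of the Grik3 site, where no stretch came within 2 mismatches. Gabra2 site 2, Gabrg1 site 2 and Grm8 site 3 are not shown, and the best match in each had 3 mismatches. The lines shown are therefore not a representative sample of the 10 regions.
Gabrg3 site 1, chr7:57246791-57246845: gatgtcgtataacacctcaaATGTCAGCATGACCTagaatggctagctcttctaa
Grin2b site 4, chr6:135959061-135959115: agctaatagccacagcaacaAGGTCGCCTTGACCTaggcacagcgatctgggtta
Gabra2 site 1, chr5:71170314-71170368: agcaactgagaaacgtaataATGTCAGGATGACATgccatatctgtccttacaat
Gria1 site 4, chr11:57013222-57013276: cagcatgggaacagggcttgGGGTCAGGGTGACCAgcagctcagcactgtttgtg
Grin2a site 1, chr16:9901154-9901208: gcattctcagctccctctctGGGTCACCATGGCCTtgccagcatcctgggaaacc
Grik3 site 2, chr4:125675629-125675729: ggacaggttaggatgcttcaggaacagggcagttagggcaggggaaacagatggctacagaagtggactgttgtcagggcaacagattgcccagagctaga

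A match to a response element with at most 2 mismatches was found in 12 of the 32 receptor gene regions (37.5%, 95% Wilson interval from 22.9% to 54.7%) and in 28.5% of all regions. Outside promoters the shares were 38.7% of 31 receptor gene regions and 36.5% of all such regions. With at most 1 mismatch the order turned, to 9.68% and 15.1% outside promoters (9.38% and 11.7% with promoters included), and an exact palindrome was in none of the 32 receptor gene regions, beside 2.37% of all regions. None of the 32 windows moved by 5 kb held a match, beside 1.51% of all windows moved in the same way. Of the 33 receptor genes with an entry in the RefSeq promoter table, none had a match in the promoter window, beside 1.20% of 17492 protein-coding promoters. The intervals cover counting error only.

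The number of receptor genes bound was similar in the 2 nuclei. In arcuate libraries 1 to 4 there were 13, 13, 8 and 6 bound receptor genes (10 ± 3.56, SD, n = 4), and in AVPV libraries 1 to 4 there were 9, 8, 8 and 12 (9.25 ± 1.89, SD, n = 4). The nuclei overlapped, and arcuate library 4 was the lowest of all 8. As shares, 20.8% ± 7.41 of receptor genes were bound in the arcuate libraries and 19.3% ± 3.94 in the AVPV libraries (SD, n = 4 each), beside 13.5% ± 1.04 and 10.9% ± 1.57 of all protein-coding genes. Arcuate library 4 also had the smallest share of its peaks beyond 20 kb from a start site, 36.0%, where arcuate library 1, with 13 receptor genes bound, had 54.1%. AVPV library 4, with 12 bound, had 51.2%. The other libraries did not follow one order. Arcuate library 2, with 13 bound, had 46.9%, and AVPV library 1, with 9, had 43.9%. Arcuate library 3 and AVPV libraries 2 and 3, with 8 bound each, had 46.1%, 44.5% and 36.9%. The part of this share in the receptor gene counts was not tested. When the start sites of non-coding genes also competed for peaks, the means fell to 3.5 receptor genes in the arcuate (7.29%) and 5.0 in the AVPV (10.4%), beside 9.48% and 7.76% of all protein-coding genes. Within 20 kb, the count of receptor genes was 1, 2, 2 and 1 in arcuate libraries 1 to 4 and 1 in each AVPV library.

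**Figure D1:**
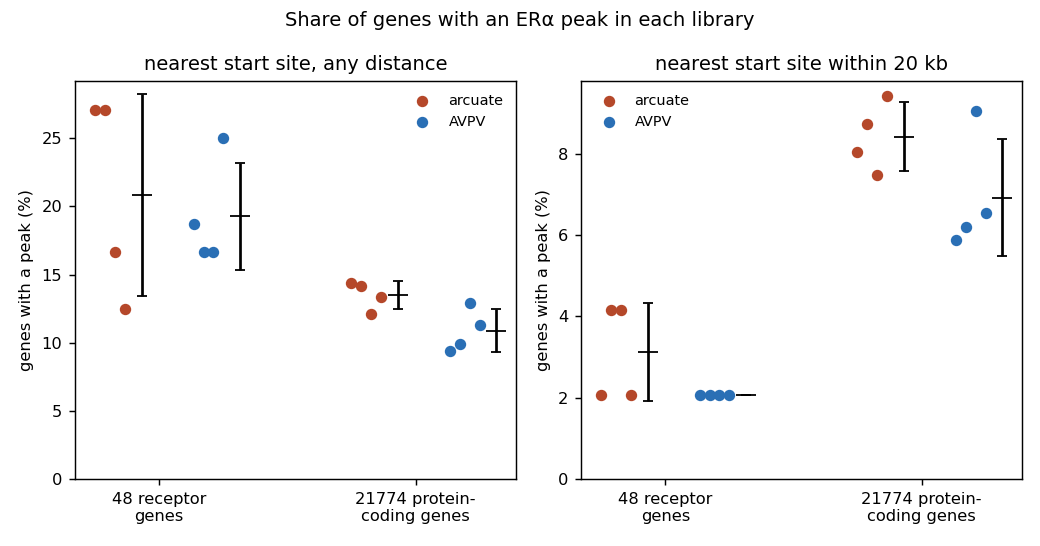
Percentage of genes with a peak in each library, for the 48 receptor genes and for all 21774 protein-coding genes, without a distance limit at left and within 20 kb at right; points are libraries, and the bars beside them are the mean and SD of 4 libraries. Receptor genes lie above all genes at left in all but arcuate library 4 and below all genes at right in every library.

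At the median, though not in every subfamily, receptor genes are long and far from their neighbours, so more of the genome is nearest to them. The median receptor gene spanned 160 kb, beside 17.2 kb for all protein-coding genes, and its start sites were the nearest to 303 kb of sequence, beside 48.9 kb. The 16 bound receptor genes were nearest to a median of 605 kb and the 32 others to 106 kb. All receptor genes together were nearest to 0.783% of the genome and to 93 of the 25982 peaks (0.358%). Beyond 20 kb from a start site, they were nearest to 0.958% of the genome, and to 0.653% ± 0.145 of such peaks in the arcuate libraries and 0.741% ± 0.125 in the AVPV libraries (SD, n = 4 each). Within 20 kb they were nearest to 0.268% of the genome and to 10 of 14244 peaks (0.0702%). Set against the sequence nearest to them, receptor genes had fewer peaks than the genome as a whole at both ranges, with the wider gap close to the start sites.

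The 32 regions lay mostly in introns or between genes. By the position of the region's centre, 14 were intronic, 15 intergenic, 2 exonic and 1 in a promoter (from 1 kb before to 100 bp after a start site), and 16 lay inside the gene that they were nearest to. Of all 8072 regions, 23.8% were in promoters. The median distance to the nearest start site was 132 kb, beside 17.8 kb for all regions, and 17 of the 32 were more than 100 kb away. There were 17 regions called in arcuate libraries only, 5 in AVPV libraries only and 10 in both (53.1%, 15.6% and 31.2%), beside 41.7%, 18.5% and 39.8% of all regions.

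**Figure D2:**
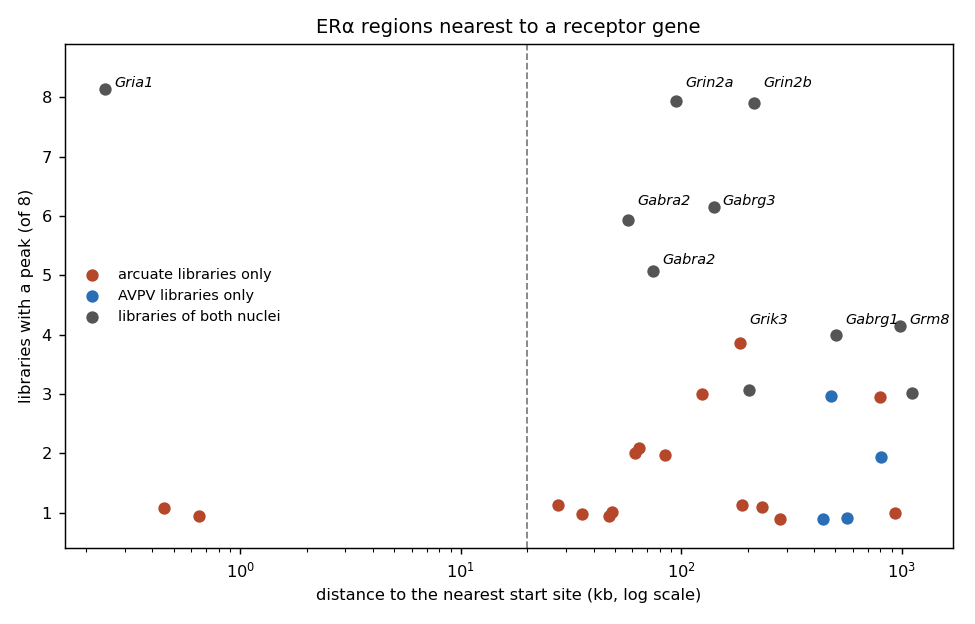
Distance from the nearest start site (kb, log scale) and number of libraries with a peak for 30 receptor gene regions, coloured by the nuclei in which they were called; points are shifted slightly on the vertical axis, names are given from 4 libraries up, and the dashed line marks 20 kb. Of the 3 regions within 20 kb, the Gria1 site was called in 8 libraries and the other 2 in 1 each, and 8 of the 9 named regions lie beyond the line.

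Among the AMPA receptor genes, Gria1 was bound in all 8 libraries, Gria3 in 3 AVPV libraries only, and Gria2 and Gria4 in none. Gria1 encodes a pore-forming AMPA subunit of fast excitatory synapses. Sites are numbered along the direction of transcription. Gria1 site 4 (chr11:57013049-57013531) was centred 0.244 kb downstream of a start site, in intron 1. Fold enrichment over background at this site was 16.7, 13.2, 11.4 and 8.66 in arcuate libraries 1 to 4, and 8.89, 10.7, 11.3 and 7.38 in AVPV libraries 1 to 4. Each list has its own background, so peak strengths were compared as percentiles of fold enrichment within their own list. The percentile was 88.0 ± 6.90 in the arcuate libraries and 75.8 ± 10.1 in the AVPV libraries (SD, n = 4 each; exact permutation test, two-sided, p = 0.114, adjusted p = 0.291 over 1089 regions). The site was strong in both nuclei, and the nuclei overlapped. Gria1 was the only receptor gene bound within 20 kb in all 8 libraries (2.08% of 48), beside 3.02% of all protein-coding genes. The other 3 regions nearest to Gria1 lay upstream of it and were each called in 1 arcuate library. The Gria3 site, 479 kb upstream of the gene, was weak, with fold enrichment of 3.92, 5.32 and 4.26 in AVPV libraries 1, 3 and 4.

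Among the 7 NMDA receptor genes, Grin2a and Grin2b were bound in all 8 libraries and Grin1, Grin2c, Grin2d, Grin3a and Grin3b in none. The share bound, 28.6%, was near the 25.5% of all protein-coding genes. Grin2a and Grin2b were nearest to 670 and 480 kb of sequence. Grin1, Grin2c, Grin2d and Grin3b were nearest to 21.4, 44.6, 21.0 and 12.1 kb, but Grin3a, also not bound, to 767 kb. Grin1 encodes the subunit found in every NMDA receptor, and Grin2a and Grin2b encode glutamate-binding subunits that set the channel's kinetics. Being bound in all 8 libraries was a property of 3 of the 48 receptor genes (6.25%) and of 4.83% of all protein-coding genes. The Grin2a site, in intron 3 and 94.6 kb downstream of the start site (chr16:9900944-9901504), had fold enrichment of 11.8, 9.46, 11.4 and 5.69 in arcuate libraries 1 to 4 and of 5.02, 10.5, 8.91 and 11.4 in AVPV libraries 1 to 4. Its percentile was 75.2 ± 20.4 in the arcuate and 67.0 ± 28.0 in the AVPV libraries (SD, n = 4 each; exact permutation test, two-sided, p = 0.486, adjusted p = 0.661). One library of each nucleus, arcuate 4 and AVPV 1, was low, and the others were alike. Without AVPV library 1 the means were 75.2 and 80.9, so the direction did not hold without that library.

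Grin2b site 4, in intron 4 and 214 kb downstream of the start site (chr6:135958857-135959565), was stronger in the AVPV than in the arcuate libraries without overlap. Its fold enrichment was 8.02, 8.86, 6.84 and 7.19 in arcuate libraries 1 to 4 and 10.7, 13.5, 14.2 and 14.1 in AVPV libraries 1 to 4. The percentile was 69.1 ± 8.65 and 88.0 ± 4.33, respectively, a difference (arcuate minus AVPV) of -18.9 percentile points (SD, n = 4 each; p = 0.0286 by two-sided exact permutation, the lowest value this design can give). The lists differ in length, which moves percentiles. In lists cut to equal length, an alternative added after seeing the data, the means were 52.9 and 86.0 and the exact permutation p was again 0.0286. After adjustment over all 1089 regions called in 8 libraries, the exact permutation p was 0.136, which did not pass the threshold. That was the lowest adjusted p of any region, since the unadjusted p could go no lower. The adjusted test therefore could not decide whether this site differed between the nuclei. Of those 1089 regions, 21.0% reached the same unadjusted p, 6.80% with the AVPV higher. By exact permutation and Benjamini-Hochberg adjustment none of the 1089 regions had an adjusted p of 0.05 or less, and 229 had an unadjusted p of 0.05 or less. Grin2b had 3 further regions, called in 1 or 2 arcuate libraries each, among them a weak peak 0.650 kb downstream of the start site, in exon 2, with fold enrichment of 4.23 in arcuate library 3.

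**Figure D3:**
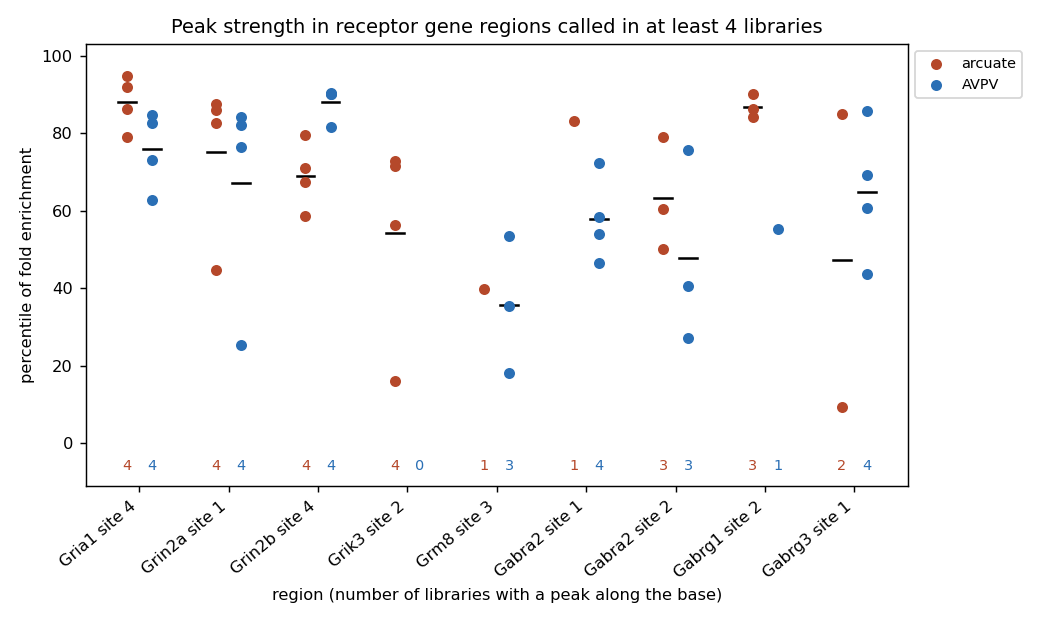
Percentile of fold enrichment within each library's list for 9 receptor gene regions called in at least 4 libraries; points are libraries, short lines are means, and the numbers along the base count the libraries with a peak in each nucleus. The AVPV points of Grin2b site 4 lie above all 4 arcuate points, and Grik3 site 2 has points from arcuate libraries only.

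Of the 5 kainate receptor genes, 4 (80%) were bound in at least 1 library, beside 25.5% of all protein-coding genes. Per library, 2.50 ± 1.29 of them were bound in the arcuate and 0.750 ± 0.957 in the AVPV (SD, n = 4 each). As shares these were 50% and 15%, beside 13.5% and 10.9% of all protein-coding genes. The library counts overlapped, from 1 to 4 and from 0 to 2, and the difference was not tested. Kainate receptor genes were nearest to a median of 404 kb, beside 48.9 kb for all protein-coding genes. Grik3 was bound in all 4 arcuate libraries and in none of the AVPV, the only receptor gene to divide the nuclei in this way. It encodes a low-affinity kainate subunit. Its site 2, in intron 10 and 185 kb downstream of the start site (chr4:125675462-125676155), had fold enrichment of 8.23, 7.76, 6.72 and 4.50 in arcuate libraries 1 to 4, and no peak was called in AVPV libraries 1 to 4. The percentiles were 72.9, 71.4, 56.4 and 16.1, so arcuate library 4 held one of its own weaker peaks there. Fisher's exact test of 4 libraries against 0 gave p = 0.0286, the smallest possible, and 1 after Benjamini-Hochberg adjustment over all genes. Grik3 no longer divided the nuclei when peaks had to exceed a fold enrichment of 5 or a −log10 q of 5, when the lists were cut to equal length, or when non-coding start sites competed. With regions in place of genes, a choice made after seeing the data, Grik3 site 2 split the nuclei in the same way (4 against 0, arcuate), as did 2.13% of all regions. The gene-level pattern held in 121 of 21774 genes (0.556%), and the reverse, AVPV without arcuate, in 27 (0.124%). By Fisher's exact test with this adjustment, no gene had an adjusted p of 0.05 or less, and 148 (0.680%) had an unadjusted p of 0.05 or less. All 148 were at the smallest possible p, and with so few of 21774 genes there, none could pass the adjustment. The adjusted test therefore could not decide whether any single gene differed between the nuclei. Within 20 kb, no receptor gene was bound in all libraries of one nucleus and none of the other, beside 0.220% of genes for the arcuate and 0.0735% for the AVPV (0.294% in either direction).

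The other kainate receptor genes were called in fewer libraries. Grik2, whose subunit is widely expressed in the brain, was bound in 3 arcuate libraries and 1 AVPV library, chiefly at a site 1114 kb downstream of its start site and outside the gene, with fold enrichment of 8.21 and 6.99 in arcuate libraries 1 and 2 and of 6.81 in AVPV library 4. Grik1 was bound in 2 libraries of each nucleus, at 3 different regions. Grik4 had the only promoter region, 0.450 kb before its start site, with fold enrichment of 4.30 in arcuate library 2. Grik5, which encodes a high-affinity subunit, was not bound.

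The delta receptor gene Grid1 was bound in no library, and neither were Grm5, of the group I metabotropic receptors, and Grm2 and Grm3, of group II. Of the group III receptors, which are mostly presynaptic, Grm7 and Grm8 were bound and Grm4 and Grm6 were not. Grm7 site 2, in intron 8 and 792 kb downstream of the start site, was called in 3 arcuate libraries, with fold enrichment of 8.47, 5.92 and 8.14 in libraries 1 to 3, and in no AVPV library. Grm7 was not confined to the arcuate, since its site 1, in intron 5, had fold enrichment of 6.24 in AVPV library 4. Another region inside Grm7, nearest to the start site of another gene, was called in 1 arcuate and 2 AVPV libraries. Its fold enrichment was from 5.32 to 7.80. Grm8 was bound in arcuate libraries 1 and 2 and in all 4 AVPV libraries, through 3 regions from 803 to 981 kb downstream of its start site. Its site 3, which lies beyond the 3′ end of the gene, had fold enrichment of 5.38 in arcuate library 2 and of 4.71, 5.49 and 6.53 in AVPV libraries 1, 2 and 4. Its site 2 had fold enrichment of 5.39 in arcuate library 1. Site 1 was among the weakest peaks of its lists, with 3.37 and 3.74 in AVPV libraries 3 and 4, and was the only Grm8 region called in AVPV library 3. The Grm8 regions were thus distant and not the same in each library.

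Many GABA-A receptor genes lie in clusters. The cluster on chromosome 5 (Gabrg1, Gabra2, Gabra4 and Gabrb1) had 5 regions and 19 peaks over the 8 libraries, through all of its genes but Gabra4. On chromosome 7, Gabrg3 was bound and Gabra5 was not. Gabra6 and Gabrb2, on chromosome 11, had no peak in any library. The genes on chromosome X (Gabre, Gabra3 and Gabrq) and the rho subunit pair on chromosome 4 (Gabrr1 and Gabrr2) had none either. The clusters differ in the sequence nearest to them. It was 1436 kb for the cluster on chromosome 5, 413 kb for that on chromosome X and 114 kb for the rho pair. Of all protein-coding genes, 25.5% were bound in at least 1 library, and the counts by cluster were not tested. Gabrp had 1 peak, in exon 10, with fold enrichment of 5.40 in arcuate library 3, and Gabrd and Gabrr3 had none.

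Gabra2, which encodes an alpha subunit of synaptic GABA-A receptors, was bound in 7 libraries, all but arcuate 3, at 2 regions upstream of the gene. Site 1 (chr5:71170238-71170625), 74.6 kb upstream, had fold enrichment of 10.3 in arcuate library 1 and of 8.75, 6.45, 6.57 and 6.03 in AVPV libraries 1 to 4. Site 2 (chr5:71152926-71153382), 57.3 kb upstream, had fold enrichment of 9.24, 5.92 and 6.49 in arcuate libraries 1, 2 and 4 and of 5.75, 8.76 and 5.11 in AVPV libraries 1, 3 and 4. Site 1 was called in 1 arcuate and 4 AVPV libraries (p = 0.143 by a two-sided Fisher's exact test), whereas site 2 was called in 3 of each, so the calls at both were shared by the nuclei. Elsewhere in the cluster, Gabrb1 had a site in intron 4 called in arcuate libraries 1 to 3 only, with fold enrichment of 4.88, 5.92 and 6.51. Gabrg1 site 2, 505 kb downstream of its start site, was among the stronger peaks of arcuate libraries 1 to 3, with fold enrichment of 11.3, 12.3 and 10.5, and had 6.67 in AVPV library 4.

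On chromosome 7, Gabrg3, a gamma subunit gene, was bound in 6 libraries at 1 region, in intron 3 and 140 kb downstream of the start site (chr7:57246620-57246969). Its fold enrichment was 10.8 and 4.01 in arcuate libraries 1 and 2 and 7.14, 5.84, 7.63 and 12.0 in AVPV libraries 1 to 4, and arcuate libraries 3 and 4 had no peak there.

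The GABA-B genes, Gabbr1 and Gabbr2, were not bound by the nearest start site. A region in an intron of Gabbr2 (chr4:46710022-46710429) was nearest to the start site of the neighbouring gene Tbc1d2, 60.0 kb away, and was called in 4 arcuate and 2 AVPV libraries, with fold enrichment from 2.84 to 8.47. Regions inside a receptor gene but nearest to the start site of another gene were also found in Gabrb1, Gria1, Grik1, Grik5 and Grm7. The one in Gria1, 285 kb downstream of its nearest start site, was called in arcuate libraries 1 to 3 and in no AVPV library. Counting a gene as bound when a peak centre lay inside it gave 15 of 48 receptor genes (31.2%), beside 17.7% of all protein-coding genes, which are shorter at the median.

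**Figure D4:**
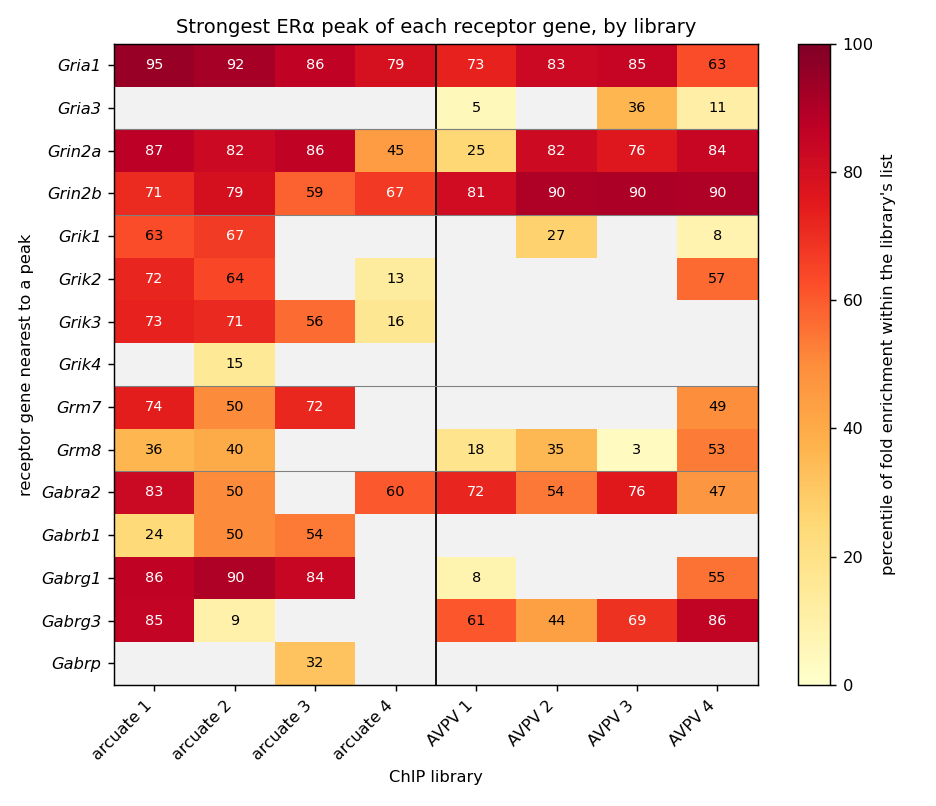
Strongest peak of 15 bound receptor genes in each library, as the percentile of fold enrichment within that library's list; grey cells have no peak. Gria1, Grin2a and Grin2b have a peak in all 8 libraries, Grik3 in the 4 arcuate libraries only, and Gria3 in AVPV libraries only.

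**Figure D5:**
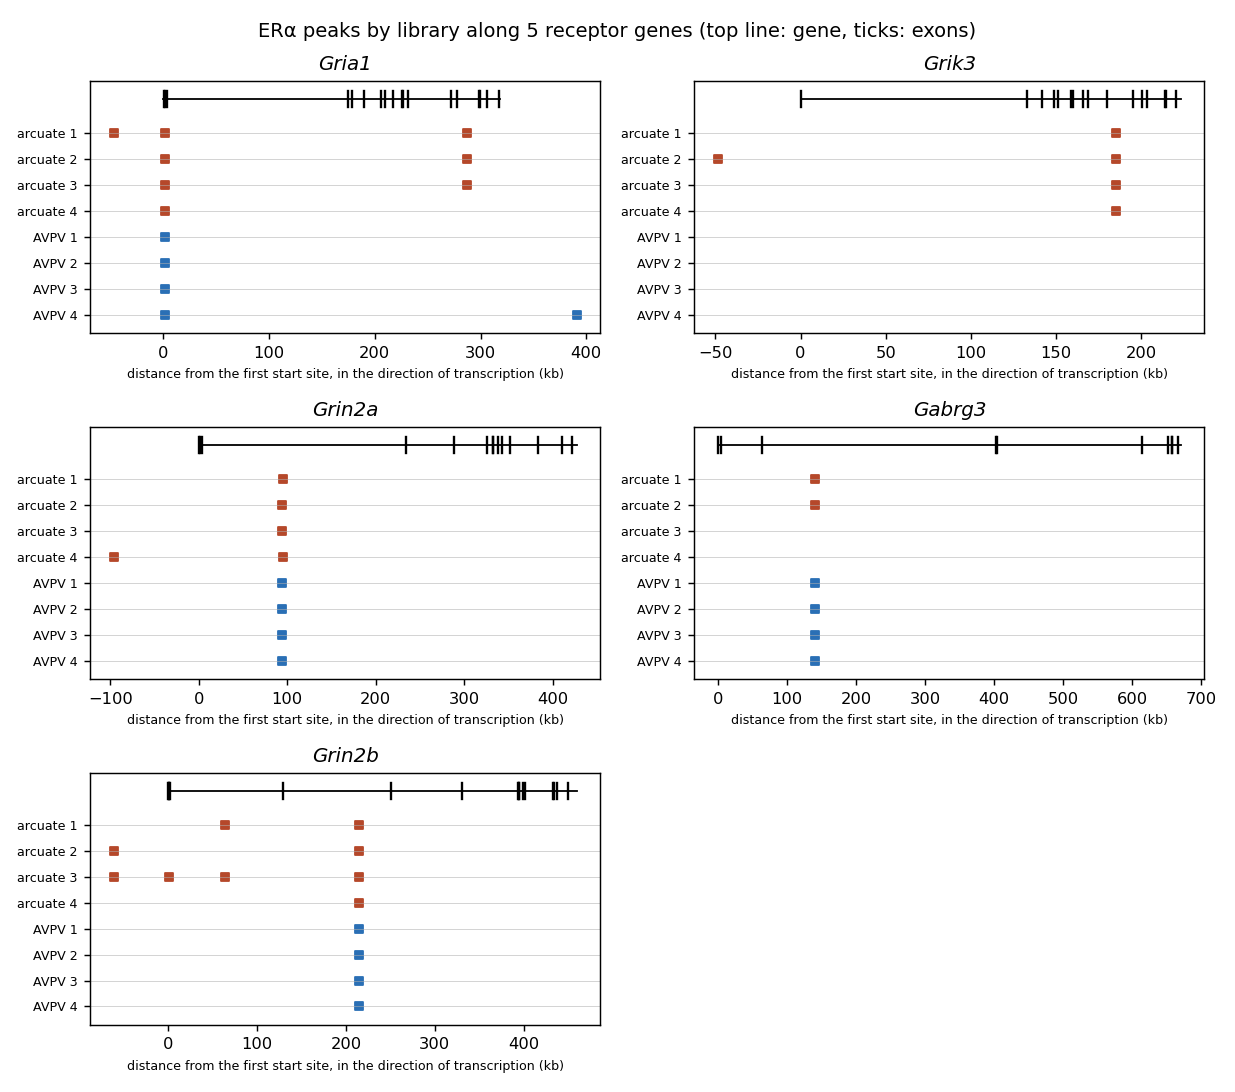
Position of ERα peaks in each library along 5 receptor genes and their surroundings, as distance from the first start site in the direction of transcription (kb); squares are peak centres, the top line is the gene and its ticks are exons, and peaks nearest to another gene are included. Each gene has a single position with a peak in 4 or more libraries, and in Grik3 only arcuate libraries have it.

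The receptor genes were set beside 59 genes of transmitter transporters, transmitter synthesis and breakdown, and receptor scaffolds and auxiliary subunits. Of these, 23 (39.0%) were bound in at least 1 library and 10 (16.9%) within 20 kb, where the receptor genes had 33.3% and 6.25%. The shares of all protein-coding genes were 25.5% and 17.0%, so within 20 kb the 59 genes were at the background. Per library, 13.5 ± 3.70 of them were bound in the arcuate and 10 ± 1.41 in the AVPV (SD, n = 4 each). As shares these were 22.9% and 16.9%, beside 13.5% and 10.9% of all protein-coding genes. The 59 genes were nearest to a median of 133 kb, beside 48.9 kb for all protein-coding genes, and the part of this was not tested. The sets also differed. Bound in at least 1 library were 2 of 12 transporter genes (16.7%), 3 of 7 synthesis and breakdown genes (42.9%) and 18 of 40 scaffold and auxiliary subunit genes (45%). Gad2, an enzyme of GABA synthesis, was bound within 20 kb in all 8 libraries, as were Dlg4 and Shank2, scaffolds of excitatory synapses, and Gabarap, which binds GABA-A receptors. The same held for 3.02% of all protein-coding genes. Cacng2, an auxiliary subunit that carries AMPA receptors to the synapse, was the only one of the 59 bound in all 4 arcuate libraries and in none of the AVPV. That split was found in 0.556% of all protein-coding genes.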

How the data were processed

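ERα ChIP-seq peaks of 4 arcuate and 4 AVPV libraries were analysed. The 2 input samples were not used here. Per the labels and the study's methods, the authors aligned reads to mm10 (Bowtie2 2.5.0), called peaks per library with MACS2 2.2.7.1 and used deepTools 3.5. Their deposited lists give a score, a fold enrichment (ratio over background), −log10 p and −log10 q for each peak. The lists hold no read counts, so the depth behind a peak is unknown, and longer lists offer more calls. Peak centres were assigned to the nearest RefSeq (GRCm38.p6) protein-coding start site with Python 3.11.15, numpy 2.4.6, pandas 2.3.3, scipy 1.17.1 and pysam 0.24.0. Genes were compared by Fisher's exact test and regions by exact permutation of the libraries, both with Benjamini-Hochberg adjustment. Both were also run on simulated data, with planted splits of 4 against 0 or strength shifts wider than those reported here. Those runs do not show how often smaller differences would be found. Counts over the receptor genes were not tested. Values in every library are given for the region called in most libraries of each gene bound in at least 6 libraries, bound within 20 kb in at least 2 libraries of a nucleus, or called in 4 libraries against 0. Members and lists were chosen with earlier results of these data known. Alternatives covered the assignment rule, distance limit, peak threshold, list length and each library. Results for some genes are not reported here.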

Additional observations from a re-analysis of the deposited data

Results flagged for a closer look

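In 3 of 22 groups of 4 libraries, 1 library lay far from the other 3 by Dixon's ratio, the gap to the nearest value over the whole range, where chance gives about 1 in 20 groups. They were the percentile of Grin2a site 1 in the arcuate libraries (ratio 0.883, library 4 at 44.8) and in the AVPV libraries (ratio 0.866, library 1 at 25.3), and the percentile of Grin2b site 4 in the AVPV libraries (ratio 0.968, library 1 at 81.5). Without arcuate library 4 the Grin2a means were 85.3 in the arcuate and 67.0 in the AVPV libraries. Without AVPV library 1 they were 75.2 and 80.9, which turned the direction, with exact permutation p = 0.971. Without AVPV library 1 the Grin2b means were 69.1 and 90.1.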

How the results depend on the processing

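Of 206 recomputed values, 179 stayed close to those reported, meaning within 1 SD between libraries, within 1.5 times a count or inside the Wilson interval. The 179 include values that a setting could not change, such as the AVPV means without an arcuate library. They also include differences between the nuclei whose direction turned. When non-coding start sites also competed for peaks, bound receptor genes per library fell to 3.5 in the arcuate and 5.0 in the AVPV (7.29% and 10.4%, beside 9.48% and 7.76% of all protein-coding genes), 0.107% and 0.205% of peaks were nearest to a receptor gene, and the genes bound in all libraries of one nucleus and none of the other numbered 82, with 0 receptor genes (148 and 1 as reported). Grik3 was also lost with peaks of −log10 q of at least 5, which left 0 receptor genes. Grik3 no longer divided the nuclei with peaks of fold enrichment above 5 and with lists of equal length, its peak in arcuate library 4 having a fold enrichment of 4.50. Without 1 library in turn, 168 to 292 genes and 1 to 2 receptor genes divided the nuclei, the highest without arcuate library 4, where Gabrb1 joined Grik3. At least 3 libraries against none gave 418 genes and 3 receptor genes, and regions in place of genes, added after seeing the data, gave 238 and 2. Counting peaks inside genes lowered the AVPV mean to 7.25 receptor genes. With 50 kb in place of 20 kb, the arcuate mean was 2.50 receptor genes, 1.5 above the AVPV. At most 1 mismatch left 9.38% of receptor gene regions with a response element, below the 11.7% of all regions. The difference of 0.750 bound receptor genes between the nuclei had no stable direction, as leaving out arcuate library 1 or 2 (-0.250 each), lists of equal length (-0.500) and non-coding start sites (-1.5) turned it. The cause of these shifts was not tested.

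Among regions called in every library, 141 to 232 had an unadjusted p of 0.05 or less without 1 library in turn, and 0 to 1 of the 3 receptor gene regions did. The Grin2b difference kept its direction under each alternative computed. Its exact permutation p was 0.0286 without any 1 arcuate library and 0.0571 without any 1 AVPV library. The difference was from -22.3 to -15.4 percentile points in the former and from -21.1 to -18.1 in the latter. In lists of equal length the Grin2a difference turned to -0.671 percentile points (62.4 and 63.1). A replicate block on the library numbers gave 0 regions and 0 receptor gene regions, since its smallest exact p is 0.125. The labels do not say whether the numbers pair the libraries. Same-numbered libraries correlated at 0.0497, 0.0144, 0.0503 and -0.0832, and differently numbered ones at -0.0975 to 0.0844. These values cannot decide whether the libraries were paired.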
